A study of Homo sapiens with 8 samples.

Results

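The genes described here are those whose mRNA level moved at least 2-fold in C4-2 cells exposed to 1 or both of 2 biguanides, metformin and phenformin, each set beside the PBS vehicle. A gene was taken as moved when its mean RPKM, the reads of a gene scaled by exon length and by library depth, differed at least 2-fold from the PBS mean and reached at least 2 RPKM in the highest of the 3 groups. Of 57773 features in the table, 10485 reached 2 RPKM, and 536 of these were higher and 1245 lower with both compounds. A further 432 were higher and 896 lower past 2-fold with metformin alone, 356 were higher and 302 lower past 2-fold with phenformin alone, and 6 lay past 2-fold in opposite directions. The remaining 6712 features were past 2-fold with neither compound.

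C4-2 is an established human cell line from prostate cancer that grows without androgen and expresses the androgen receptor. The cells grew in T medium with serum. For 24 h they received PBS as the vehicle (3 libraries), metformin at 5 mM (3 libraries) or phenformin at 1 mM (2 libraries), with no other difference between the groups given in the labels. All 8 libraries of the series were used, 5 of them from cells given a biguanide. The labels number the replicates without saying whether they came from separate cultures, so the p-values rest on library-to-library spread alone, and that spread could be purely technical. Both compounds were set beside the same 3 PBS libraries, and the doses differ, so the values of metformin and phenformin are given side by side and no test was run between them.

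Biguanides are small cationic drugs built on a pair of joined guanidine units. Metformin carries methyl groups on one end of that core, while phenformin carries a bulkier and more lipophilic phenylethyl group. Both are known to accumulate in mitochondria, where they inhibit complex I of the respiratory chain, and a fall in cellular energy charge activates the AMP-activated protein kinase (AMPK). Metformin depends largely on organic cation transporters to enter cells, and phenformin less so. Metformin is prescribed for type II diabetes, and phenformin was withdrawn from most markets because of lactic acidosis.

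The libraries held 13837455 to 15898491 mapped reads except 1, PBS replicate 1, which held 44774670, 2.93 times the median of the other 7. Reads on gene features made up 77.2 to 78.6% of the mapped reads in PBS libraries, 72.0 to 75.1% in metformin libraries and 71.6 to 73.3% in phenformin libraries. The share of all RPKM held by the 10 most abundant features was 21.7 to 23.2% in PBS libraries, 13.3 to 13.9% in metformin libraries and 7.16 to 7.24% in phenformin libraries. The luminal prostate markers of the cell line were present, with 8 of 8 tested and summed levels of 1229 to 1371 RPKM with PBS, 430 to 477 RPKM with metformin and 551 to 576 RPKM with phenformin. Markers of other cell types were low in every library. The 6 immune markers summed to at most 0.824 RPKM, with PTPRC and CD3E at 0 throughout, the 3 endothelial markers in the table to at most 0.436 RPKM, the 8 neuroendocrine markers to at most 4.83 RPKM and the 6 basal markers to at most 20.4 RPKM. The 8 stromal markers summed to 6.16 to 6.95 RPKM with PBS, 10.4 to 12.2 RPKM with metformin and 8.60 RPKM in both phenformin libraries, and their part in the results was not tested. In RNA from whole cultures, fewer cells of a kind and less RNA per cell cannot be told apart.

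The number of genes that each compound moved was taken first. Limma on log2(RPKM + 0.1), with Benjamini-Hochberg adjustment and a limit of 0.05, was applied to the 12172 genes that reached 1 RPKM in 2 or more libraries. With metformin 3395 genes (27.9%) rose and 6674 (54.8%) fell. With phenformin 3792 genes (31.2%) rose and 5521 (45.4%) fell. The median log2 change over all tested genes was -0.31 with metformin and -0.15 with phenformin, and values for gene groups are therefore also given relative to these medians. After each library was centred on its median, 4404 genes rose and 5595 fell with metformin, and 4328 rose and 5010 fell with phenformin. On the TPM scale the counts were 4710 and 5221 with metformin, and with phenformin the balance turned, at 5297 genes higher and 4008 lower.

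The classes by 2-fold were then counted for each biguanide. Of all 10485 features, 9.23% were past 2-fold higher and 20.5% past 2-fold lower with metformin, and 8.56% and 14.8% with phenformin. Metformin placed 968 features past 2-fold higher, of which 55.4% were also past it with phenformin, and 2147 features past 2-fold lower, of which 58.0% were. Phenformin placed 898 features past 2-fold higher, of which 59.7% were also past it with metformin, and 1547 features past 2-fold lower, of which 80.5% were. Both comparisons share the PBS libraries, so these shares are a description only. Libraries that did not overlap PBS were common as well. Of the 6712 features past 2-fold with neither compound, 5245 lay apart from PBS with metformin and 5518 with phenformin. No feature was higher with metformin and lower with phenformin, although 2 were when phenformin replicate 1 was left out. The limit cut through a continuous range: GNL2 lay just inside at 2.0012-fold higher with metformin and GMEB1 just outside at 1.9953-fold. IRS1 (2.0002-fold) and LIN54 (1.9993-fold) stood at the same limit with phenformin. On the lower side, CBY1 (2.0002-fold) and PPP6R2 (1.9999-fold) bounded the metformin class, while SHPK_1 (2.00004-fold) and DAK (1.9989-fold) bounded the phenformin class.

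**Figure D1:**
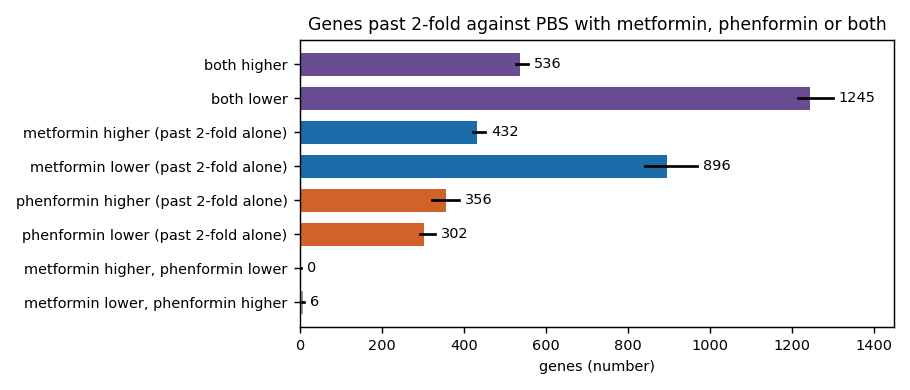
Number of genes (x axis) in each class by direction of the 2-fold change in group mean RPKM against PBS. Bars give the counts from all 8 libraries and black lines the range when each library was left out in turn, so that 1245 genes lower with both compounds form the largest class shown and the 2 opposite classes hold 0 and 6.

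Genes that were higher with both compounds are described first, as the 8 with the largest smaller fold among those whose libraries lay apart from PBS. Their separation from PBS is therefore part of how they were chosen. DUSP1, which encodes a phosphatase that switches off MAP kinases, was at 0.918, 1.43 and 0.844 RPKM with PBS, at 217, 205 and 217 RPKM with metformin and at 114 and 120.1 RPKM with phenformin. Every biguanide library thus stood far above every PBS library, with means 200.1-fold and 109.7-fold over PBS. CYR61, a secreted matricellular protein and a classic target of the YAP coactivator, was at 0.846, 0.971 and 0.721 RPKM with PBS, 118, 110.0 and 99.2 RPKM with metformin and 48.0 and 51.4 RPKM with phenformin. Its means were 129-fold and 58.7-fold above PBS, again without overlap. GBP2, an interferon-inducible GTPase, was at 0.189, 0.230 and 0.178 RPKM with PBS, at 13.3, 12.8 and 12.9 RPKM with metformin and at 4.64 and 5.28 RPKM with phenformin. DUSP1, CYR61 and GBP2 passed the limits on low values only through the biguanide libraries, so that they rose was fixed in advance.

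Other members of this class were almost silent in control cells, so that their folds rest on a few reads. The chemokine receptor gene CXCR4 gave 9, 1 and 4 reads in the PBS libraries and rose from a mean of 0.0803 RPKM with PBS to 6.79 RPKM with metformin and 2.35 RPKM with phenformin. FHL2, a LIM-domain cofactor linked to the actin cytoskeleton, gave 15, 4 and 7 reads with PBS, and its mean was 0.0545 RPKM with PBS, 5.68 RPKM with metformin and 1.14 RPKM with phenformin. C8orf4 gave 4, 2 and 2 reads with PBS, 879 to 1424 reads with metformin and 163 and 154 reads with phenformin. No PBS library of these 3 genes reached the level of any biguanide library, as their choice required. They too passed the limits on low values only through the biguanide libraries, so that they rose was fixed in advance.

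The cytosolic chaperone genes were both abundant and strongly raised. HSPA1B, the stress-inducible chaperone that holds unfolded proteins, was at 68.3, 66.4 and 58.0 RPKM with PBS, at 1509, 1393 and 1444 RPKM with metformin and at 2212 and 2370 RPKM with phenformin. Reads of HSPA1B can be shared with its near-identical neighbour HSPA1A, so the split between the copies is uncertain. DNAJB1, the J-domain partner of that chaperone, was at 12.2, 11.99 and 11.9 RPKM with PBS, at 393, 361 and 371 RPKM with metformin and at 267 and 279 RPKM with phenformin. Every biguanide library thus lay far above every PBS library in both genes, a separation that their choice required.

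**Figure D2:**
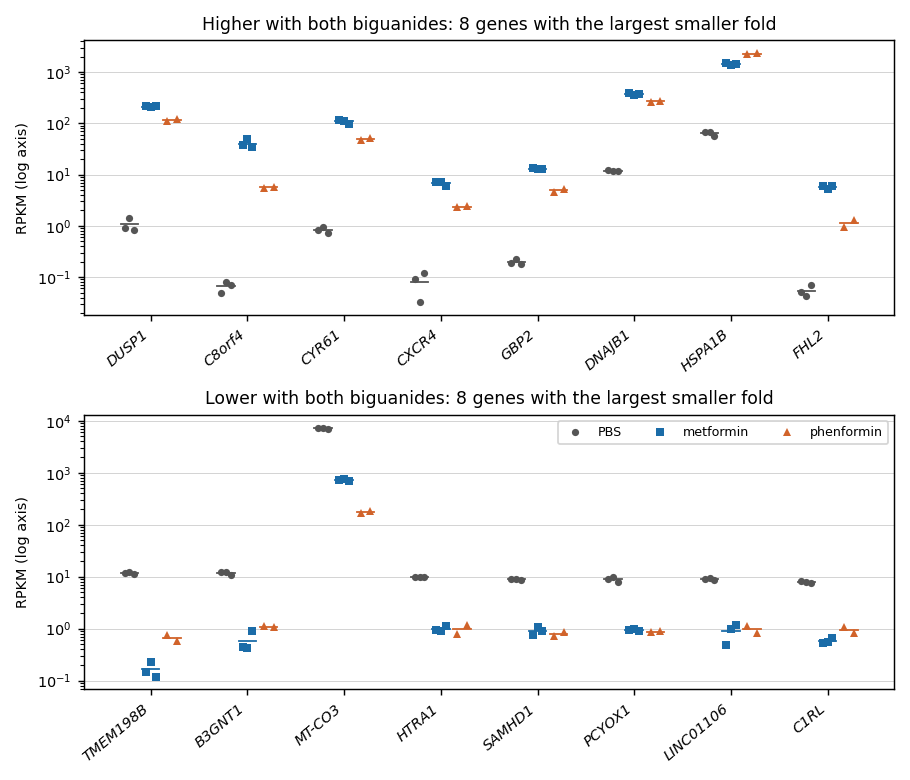
RPKM of single libraries (y axis, log scale) for the 8 genes higher and the 8 genes lower with both compounds whose smaller fold was largest, with circles for PBS (3 libraries), squares for metformin (3) and triangles for phenformin (2), and short lines for group means. The 16 genes were chosen so that the PBS libraries lie apart from every biguanide library, as for DUSP1 at 0.844 to 1.43 RPKM with PBS and at least 114 RPKM with either compound.

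The promoters of 5 genes are shown because they hold short motifs known from the stress pathways to which these genes belong, and because 4 of them (DUSP1, PPP1R15A, HSPA1B and MT2A) were higher with both compounds while the fifth (CHAC1) was lower past 2-fold with metformin alone. Each window runs from 250 bases before to 50 bases after a RefSeq start site (GRCh38.p14), 5′ to 3′ on the gene's strand, with the motif matches in capitals. The motifs, searched on both strands, were the cAMP response element TGACGTCA (DUSP1, PPP1R15A), the palindromic core of the heat shock element GAANNTTC (HSPA1B), the metal response element core TGCACNC or TGCGCNC (MT2A) and the ATF4-type element TGATGNAA (CHAC1). The windows are chr5:172771146-172771445 on the minus strand for DUSP1, chr19:48872171-48872470 for PPP1R15A, chr6:31827488-31827787 for HSPA1B, chr16:56608334-56608633 for MT2A and chr15:40953221-40953520 for CHAC1, the last 4 on the plus strand.
DUSP1: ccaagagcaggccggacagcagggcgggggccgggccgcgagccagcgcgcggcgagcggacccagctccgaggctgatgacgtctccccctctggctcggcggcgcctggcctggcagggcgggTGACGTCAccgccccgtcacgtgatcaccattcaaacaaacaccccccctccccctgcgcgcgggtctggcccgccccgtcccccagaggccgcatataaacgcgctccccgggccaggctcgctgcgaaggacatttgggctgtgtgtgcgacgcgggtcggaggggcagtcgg
PPP1R15A: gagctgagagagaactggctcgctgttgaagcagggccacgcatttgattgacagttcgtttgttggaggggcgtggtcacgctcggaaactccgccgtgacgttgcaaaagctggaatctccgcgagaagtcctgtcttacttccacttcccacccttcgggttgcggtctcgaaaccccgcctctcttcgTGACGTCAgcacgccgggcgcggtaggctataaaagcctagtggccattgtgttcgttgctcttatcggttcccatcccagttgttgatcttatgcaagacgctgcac
HSPA1B: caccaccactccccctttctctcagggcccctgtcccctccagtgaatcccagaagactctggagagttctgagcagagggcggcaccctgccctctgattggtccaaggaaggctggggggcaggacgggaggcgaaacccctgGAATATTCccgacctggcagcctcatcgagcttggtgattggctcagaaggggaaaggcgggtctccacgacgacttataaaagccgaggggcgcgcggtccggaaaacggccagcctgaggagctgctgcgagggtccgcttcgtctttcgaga
MT2A: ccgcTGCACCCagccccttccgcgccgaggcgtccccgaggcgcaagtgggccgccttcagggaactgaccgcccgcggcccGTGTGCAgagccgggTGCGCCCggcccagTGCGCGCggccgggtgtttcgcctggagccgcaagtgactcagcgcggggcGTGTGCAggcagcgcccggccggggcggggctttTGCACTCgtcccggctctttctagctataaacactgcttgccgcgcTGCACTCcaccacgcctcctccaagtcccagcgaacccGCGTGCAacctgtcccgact
CHAC1: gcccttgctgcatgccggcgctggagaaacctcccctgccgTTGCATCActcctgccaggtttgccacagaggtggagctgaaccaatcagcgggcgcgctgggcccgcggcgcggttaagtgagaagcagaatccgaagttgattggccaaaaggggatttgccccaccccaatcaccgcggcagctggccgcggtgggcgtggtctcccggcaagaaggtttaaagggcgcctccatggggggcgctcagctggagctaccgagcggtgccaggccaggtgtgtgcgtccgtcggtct
The cAMP response element began 125 bases before the start in DUSP1 and 58 bases before it in PPP1R15A, and 1.85% of the 35116 RefSeq promoter windows hold one. The heat shock core began 105 bases before the start in HSPA1B and is held by 6.77% of windows. MT2A had 8 matches to the metal response element, which occurs at least once in 29.6% of windows, and CHAC1 had 1 ATF4-type element 209 bases before the start, a motif held by 3.62% of windows. These genes were picked by name, and a match in a window is a description of its letters. Shares of motifs were not compared between the classes, because only 60.6 to 76.6% of the genes in the 7 classes other than the opposite one had a window in the table.

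Known pathways were then read through gene lists, beginning with the stress responses. Over all tested genes 27.9% rose and 54.8% fell with metformin, and 31.2% rose and 45.4% fell with phenformin. In the heat shock list 24 of 26 tested genes rose and 2 fell with metformin, and 19 rose and 3 fell with phenformin. The list median lay 1.63 and 1.01 log2 units above the median of all genes with metformin and phenformin. HSPA4, a nucleotide exchange factor for these chaperones, was an exception. It rose with metformin (log2 change 0.74 ± 0.03 SE, adjusted p = 1.2e-07 by limma) and fell slightly with phenformin (log2 change -0.17 ± 0.04 SE, adjusted p = 0.0024), a fall that turned to 0.092 on the TPM scale and lost its call after median-centring.

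The integrated stress response is the program in which cells limit translation and raise ATF4 and its targets. Of its 36 listed genes 20 rose and 12 fell with metformin, beside 27.9% and 54.8% of all genes. With phenformin 18 rose and 11 fell, beside 31.2% and 45.4%. The list medians lay 0.70 and 0.27 log2 units above all genes. ATF3, a transcription factor induced by many stresses, was at 19.3, 18.1 and 21.3 RPKM with PBS, at 483, 469 and 458 RPKM with metformin and at 269.9 and 278 RPKM with phenformin. PPP1R15A, the subunit that restores translation by directing dephosphorylation of its initiation factor, was at 1.92, 1.68 and 1.97 RPKM with PBS, at 37.1, 31.6 and 32.6 RPKM with metformin and at 33.1 and 36.7 RPKM with phenformin. The mRNA of ATF4 itself did not pass the test with either compound, with log2 changes of 0.14 ± 0.07 SE (adjusted p = 0.095 by limma) and 0.06 ± 0.08 SE (adjusted p = 0.49). That depended on the scaling, since with metformin ATF4 passed after median-centring (0.34, adjusted p = 0.00087), on the TPM scale (0.40, adjusted p = 0.00021) and without metformin replicate 2 (0.20, adjusted p = 0.013), and with phenformin on the TPM scale (0.33, adjusted p = 0.0018). Members also lay apart from the list's direction. CHAC1, which encodes a glutathione-degrading enzyme and an ATF4 target, was at 18.8, 18.1 and 18.6 RPKM with PBS, at 4.95, 4.02 and 4.89 RPKM with metformin and at 16.8 and 17.6 RPKM with phenformin.

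Immediate early transcription factors are known to be switched on within minutes of a signal, and here only the 24 h time point was measured. Of 29 listed genes 18 passed the limit on low values and 11, EGR1, FOSB and JUNB among them, did not. Of the 18 tested, 15 rose and 2 fell with metformin and 16 rose and 1 fell with phenformin. Over all tested genes 27.9% rose and 54.8% fell with metformin, and 31.2% rose and 45.4% fell with phenformin. The list medians were 2.67 and 2.17 log2 units above all genes. JUN, a subunit of AP-1, was at 9.39, 9.12 and 8.98 RPKM with PBS, at 163, 154 and 168 RPKM with metformin and at 264 and 297 RPKM with phenformin. KLF6, a zinc finger factor, was at 2.45, 2.39 and 2.47 RPKM with PBS, at 35.6, 36.3 and 35.0 RPKM with metformin and at 27.9 and 27.8 RPKM with phenformin. Both stood apart from PBS in every library, and both were picked as the list members with the largest changes. Of 10 MAP kinase phosphatase genes, 7 rose and 3 fell with metformin and 8 rose and 2 fell with phenformin. The medians of these phosphatases were 2.08 and 1.57 log2 units above all genes. DUSP5 was among those that rose with both (log2 changes 6.09 ± 0.11 SE and 3.81 ± 0.12 SE by limma). With PBS it was at only 0.239, 0.249 and 0.175 RPKM. DUSP5 thus passed the limit on low values only through the biguanide libraries, so its rise was fixed in advance by that limit.

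Lists of cytoskeletal and growth factor genes were read in the same way. Over all tested genes 27.9% rose and 54.8% fell with metformin, and 31.2% rose and 45.4% fell with phenformin. In the list of actin cytoskeleton genes and targets of serum response factor, 24 of 32 rose and 3 fell with metformin, and 22 rose and 2 fell with phenformin. The medians of this list were 1.47 and 0.93 log2 units above all genes. FHL2, described above, is among those that rose, although it passed the limit on low values only through the biguanide libraries. Of 12 tested YAP-TEAD targets 7 rose and 4 fell with metformin. With phenformin 6 rose, 2 fell and 4 did not pass. The medians of these targets were 1.24 and 0.36 log2 units above all genes. One of the targets, ANKRD1, a nuclear and sarcomeric repeat protein, gave 2, 1 and 1 reads with PBS, 205 to 224 reads with metformin and 11 and 9 reads with phenformin. ANKRD1 passed the limit on low values only through the metformin libraries, so its rise with metformin was fixed in advance by that limit. Of 23 genes of the TGF-beta, BMP and ID list, 18 rose and 4 fell with metformin and 15 rose and 5 fell with phenformin, with medians 1.15 and 0.83 above all genes. ID3, an inhibitor of basic helix-loop-helix factors, was at 3.95, 4.14 and 3.79 RPKM with PBS, at 60.0, 53.2 and 63.7 RPKM with metformin and at 99.6 and 113 RPKM with phenformin.

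Metallothioneins, the small cysteine-rich proteins that bind zinc and copper, were measured by 7 tested genes. With metformin 3 rose and none fell, the largest log2 change being 2.69, and with phenformin all 7 rose, with log2 changes from 2.87 to 5.98. Over all tested genes 27.9% rose with metformin and 31.2% with phenformin. One of the 7 metallothioneins, MT1B, was at 0 in every PBS and metformin library, so that no fold is given for it. MT1B was tested only because both phenformin libraries reached the limit on low values, so its rise was fixed in advance by that limit. Summed over the 10 listed genes the level was 47.4 to 59.1 RPKM with PBS, 223 to 320 RPKM with metformin and 2334 and 2515 RPKM with phenformin. MT2A was at 37.7, 33.9 and 32.9 RPKM with PBS, 155, 146 and 208 RPKM with metformin, and 1523 and 1680 RPKM with phenformin. MT1F was at 5.57, 4.63 and 6.01 RPKM with PBS, 32.3, 31.9 and 42.9 RPKM with metformin, and 332 and 357 RPKM with phenformin. In both genes the 3 groups did not overlap, although reads of these closely related genes can be assigned to the wrong copy.

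The genes that were lower with both compounds included the messages that mitochondria make from their own genome. The 13 mitochondrially encoded respiratory mRNAs all fell with each compound, and 9 of them were lower past 2-fold with both and 4 with phenformin alone. Their summed level was 51761 to 56607 RPKM with PBS, 24287 to 25873 RPKM with metformin and 8793 and 8833 RPKM with phenformin, and the list medians were 1.36 and 2.70 log2 units below all genes. MT-CO3, a subunit of cytochrome c oxidase, was at 7425, 7386 and 6939 RPKM with PBS, at 714, 745 and 708 RPKM with metformin and at 172 and 181 RPKM with phenformin. MT-ND3, a complex I subunit, was at 1880, 1881 and 1778 RPKM with PBS, at 254, 305 and 255 RPKM with metformin and at 116 and 112 RPKM with phenformin.

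The nuclear genes for complex I, the enzyme that biguanides inhibit, did not share that pattern. Of 36 tested, 2 rose and 28 fell with metformin, beside 27.9% and 54.8% of all genes, with a median 0.05 log2 units below all genes. With phenformin 21 rose and 4 fell, beside 31.2% and 45.4%, with a median 0.42 above. After median-centring, 7 rose and 22 fell with metformin and 24 rose and 4 fell with phenformin. Only 1 of these genes was past 2-fold with either compound. NDUFB3, an accessory subunit, was at 36.9, 35.1 and 36.5 RPKM with PBS, at 22.2, 23.9 and 23.6 RPKM with metformin and at 58.1 and 60.3 RPKM with phenformin, so that the groups lay on opposite sides of PBS.

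Of the 12 tested genes for AMPK subunits and upstream kinases, 3 rose and 7 fell with metformin, against 54.8% of all genes that fell, and 2 rose and 9 fell with phenformin, against 45.4%. After median-centring 4 rose and 4 fell with metformin, and 3 rose and 7 fell with phenformin. The list medians lay 0.08 above and 0.28 below the median of all genes. CAMKK2, a calcium-dependent kinase that activates AMPK and is also an androgen-responsive gene, was at 23.7, 24.1 and 22.8 RPKM with PBS, at 6.75, 6.42 and 7.34 RPKM with metformin and at 8.10 and 8.24 RPKM with phenformin. Only 2 of 12 listed transporters of biguanides passed the limit on low values. One, the organic cation transporter gene SLC22A3, was at 1.49, 1.36 and 1.49 RPKM with PBS, at 0.124, 0.208 and 0.319 RPKM with metformin and at 0.361 and 0.309 RPKM with phenformin. SLC22A3 passed the limit on low values only through the PBS libraries, so its fall was fixed in advance by that limit.

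The leading genes of the class lower with both compounds were chosen in the same way. TMEM198B was at 11.9, 12.4 and 11.3 RPKM with PBS, at 0.146, 0.229 and 0.119 RPKM with metformin and at 0.742 and 0.576 RPKM with phenformin, which made its means 72.0-fold and 17.9995-fold lower. SAMHD1, which hydrolyses deoxynucleotides, was at 8.85, 9.09 and 8.62 RPKM with PBS, at 0.749, 1.07 and 0.907 RPKM with metformin and at 0.737 and 0.866 RPKM with phenformin. HTRA1, a secreted serine protease, was at 9.84, 9.95 and 9.74 RPKM with PBS, at 0.951, 0.920 and 1.13 RPKM with metformin and at 0.802 and 1.16 RPKM with phenformin. In SAMHD1 and HTRA1 the libraries of the biguanides interleaved, and all lay below the PBS libraries, as their choice required. PCYOX1, an oxidase that breaks down prenylated cysteine, was 9.46-fold and 10.2-fold lower with metformin and phenformin. B3GNT1 (20.1-fold and 10.7-fold lower), the complement-related protease gene C1RL (13.5-fold and 8.28-fold) and the noncoding RNA LINC01106 (10.0-fold and 9.10-fold) completed the group. The genes named in this paragraph reached 2 RPKM only through the PBS libraries, so that they fell was fixed in advance.

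Genes of prostate identity were among the shared falls. Of 23 androgen-responsive and prostate lineage genes, 18 fell and 5 rose with metformin, 14 fell and 4 rose with phenformin, and 10 were lower past 2-fold with both. Over all tested genes 54.8% fell with metformin and 45.4% with phenformin, and 11.9% of all 10485 features were lower past 2-fold with both. The list medians were 0.90 and 0.68 log2 units below all genes. KLK3, which encodes prostate-specific antigen, was at 407, 429 and 349 RPKM with PBS, at 82.7, 73.9 and 83.8 RPKM with metformin and at 102 and 106 RPKM with phenformin. SLC45A3, the prostate transporter prostein, was at 91.5, 97.4 and 75.04 RPKM with PBS, at 11.8, 10.3 and 12.9 RPKM with metformin and at 22.8 and 24.5 RPKM with phenformin. STEAP2, a metalloreductase, was at 156, 162 and 161 RPKM with PBS, at 33.3, 35.4 and 35.3 RPKM with metformin and at 28.1 and 29.5 RPKM with phenformin. None of these groups overlapped PBS, but these genes were picked for large changes. Most features past 2-fold with neither compound also lay apart from PBS.

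Genes that fold proteins in the endoplasmic reticulum fell while cytosolic chaperones rose. Of 29 tested, 23 fell and 4 rose with metformin and 27 fell and 1 rose with phenformin. Of all tested genes 54.8% fell with metformin and 45.4% with phenformin. The list medians were 0.72 and 1.00 log2 units below all genes. In this list 13 genes were lower past 2-fold with both, beside 11.9% of all features. DERL1, a channel component that exports misfolded proteins, was at 11.1, 11.3 and 9.48 RPKM with PBS, at 3.00, 2.13 and 2.93 RPKM with metformin and at 1.31 and 1.04 RPKM with phenformin. HSPA5, the main chaperone of this compartment, lay in another class. It was at 408, 378 and 442 RPKM with PBS, at 376, 406 and 377 RPKM with metformin and at 138 and 139 RPKM with phenformin, so only the phenformin libraries stood apart from PBS.

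Lipid synthesis fell with both compounds by count, with differences between members. Of 24 genes of cholesterol biosynthesis and uptake, 23 fell and none rose with metformin, while 16 fell and 3 rose with phenformin, and the list medians were 0.85 and 0.26 log2 units below all genes. SQLE, squalene epoxidase, was at 18.4, 18.4 and 17.9 RPKM with PBS, at 3.40, 3.35 and 3.33 RPKM with metformin and at 7.51 and 7.96 RPKM with phenformin. Of 14 genes of fatty acid synthesis 13 fell with metformin, and 10 fell and 3 rose with phenformin. Their list medians were 0.43 and 0.28 log2 units below all genes. Of all tested genes 54.8% fell with metformin and 45.4% with phenformin. SREBF1, the transcription factor that directs lipid synthesis, was at 51.2, 51.5 and 41.2 RPKM with PBS, at 20.1, 18.1 and 21.4 RPKM with metformin and at 62.1 and 69.2 RPKM with phenformin. Of 24 glycolysis genes 21 fell and 1 rose with metformin and 16 fell and 2 rose with phenformin, but the list medians were only 0.08 and 0.24 log2 units below all genes, and 14 and 15 fell after median-centring.

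**Figure D3:**
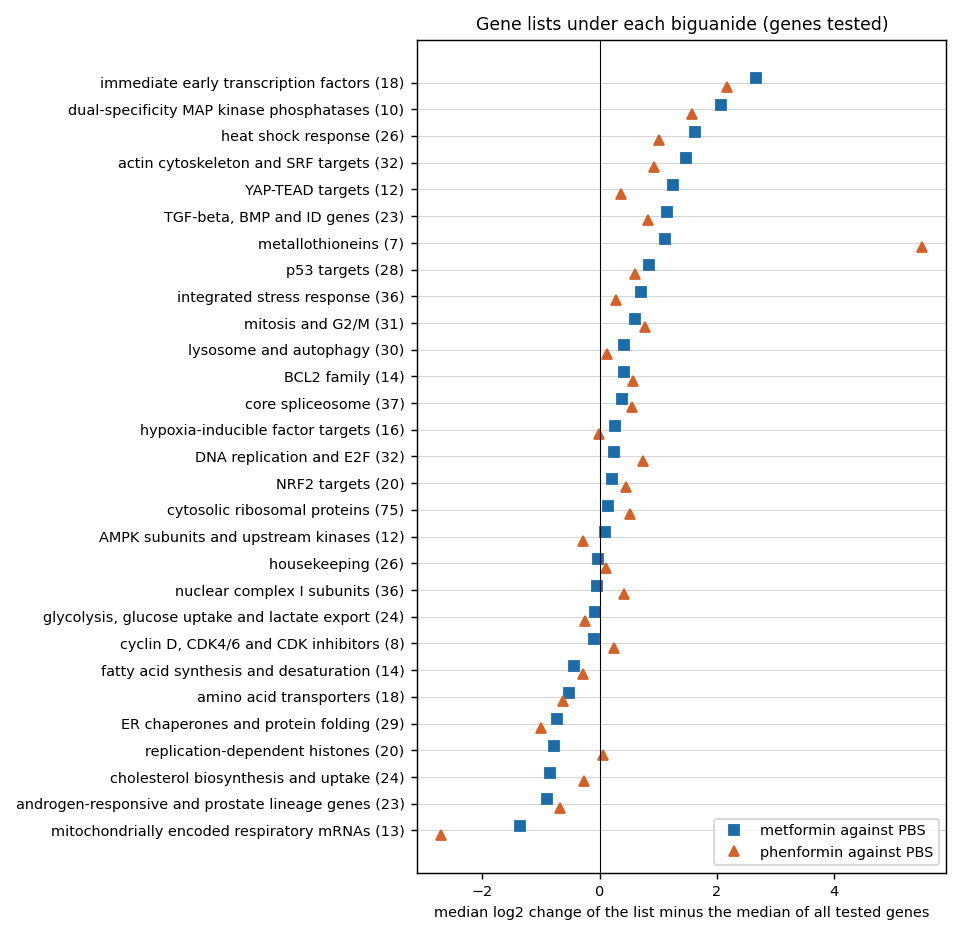
Median log2 change of each gene list minus the median of all tested genes (x axis), for lists with more than 2 tested genes, with squares for metformin and triangles for phenformin against PBS and the number of genes tested in brackets. Immediate early factors stand highest with metformin (2.67), metallothioneins highest with phenformin (5.50) and mitochondrially encoded mRNAs lowest with both (-1.36 and -2.70).

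Cell cycle genes were divided. CCND1, the cyclin that drives entry into the cycle, fell from 31.5, 30.7 and 30.1 RPKM with PBS to 5.27, 4.87 and 5.11 RPKM with metformin and 9.10 and 9.98 RPKM with phenformin. CDKN1A, the p21 inhibitor of cyclin-dependent kinases, rose from 6.75, 6.37 and 7.51 RPKM to 26.7, 24.4 and 28.6 RPKM with metformin and to 12.5 and 12.6 RPKM with phenformin. Of 31 genes of mitosis and G2/M, 17 rose and 8 fell with metformin, and 25 rose and none fell with phenformin. Over all tested genes 27.9% rose with metformin and 31.2% with phenformin. The medians of this list were 0.61 and 0.78 log2 units above all genes. WEE1, the kinase that delays mitosis, was 16.2-fold and 8.23-fold higher, and UBE2C, which serves the anaphase-promoting complex, was 1.98-fold and 3.51-fold higher. AURKB, a kinase of chromosome segregation, was at 6.36, 6.69 and 5.22 RPKM with PBS, at 3.70, 3.49 and 4.45 RPKM with metformin and at 10.7 and 10.3 RPKM with phenformin. In the list of DNA replication and E2F genes 12 rose and 9 fell with metformin and 24 rose and 3 fell with phenformin. Of 28 p53 targets 16 rose and 6 fell with metformin and 17 rose and 7 fell with phenformin, with list medians 0.84 and 0.60 above all genes. The death receptor gene FAS was 10.96-fold and 8.54-fold higher. With PBS it was at 0.909, 0.852 and 0.938 RPKM. FAS thus passed the limit on low values only through the biguanide libraries, so its rise was fixed in advance by that limit.

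The classes past 2-fold with 1 compound alone were examined next. Being past the limit with 1 compound is not a tested difference, and the doses differ. Over the 432 genes higher past 2-fold with metformin alone, the median level was 4.35 RPKM with PBS, 10.7 RPKM with metformin and 6.56 RPKM with phenformin. The genes named here were those with the largest change whose mean with the other compound lay close to PBS. RAP2B, a small GTPase of the RAS family, was at 7.68, 7.52 and 8.04 RPKM with PBS, at 36.2, 34.9 and 30.5 RPKM with metformin and at 9.43 and 9.90 RPKM with phenformin, where it was also slightly above PBS. PPARG, a nuclear receptor of lipid metabolism, was at 3.81, 3.80 and 4.33 RPKM with PBS, at 12.8, 12.4 and 12.3 RPKM with metformin and at 3.91 and 4.23 RPKM with phenformin, within the range of PBS. NUAK1, a kinase related to AMPK, was at 1.95, 1.93 and 1.97 RPKM with PBS, at 5.89, 5.47 and 4.91 RPKM with metformin and at 2.24 and 1.92 RPKM with phenformin. CA12, a carbonic anhydrase (3.12-fold higher with metformin), TMEM2, a cell-surface hyaluronidase (3.02-fold), and RAB23, a vesicle GTPase (2.90-fold), made up the rest.

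Among the 896 genes lower past 2-fold with metformin alone, with medians of 6.22 RPKM with PBS, 2.38 RPKM with metformin and 4.20 RPKM with phenformin, 2 of the leading 6 were equilibrative nucleoside transporters. SLC29A1 was at 12.1, 12.2 and 10.7 RPKM with PBS, at 2.03, 2.02 and 2.26 RPKM with metformin and at 9.89 and 10.4 RPKM with phenformin. SLC29A2 was at 23.2, 23.9 and 18.7 RPKM with PBS, at 5.60, 4.99 and 6.05 RPKM with metformin and at 21.8 and 23.2 RPKM with phenformin. Both genes were clearly below PBS with metformin, and with phenformin SLC29A2 overlapped PBS while SLC29A1 lay just below it. DDIT4, an inhibitor of mTORC1 that is induced by hypoxia and energy stress, was at 107, 101 and 102 RPKM with PBS, at 27.0, 24.9 and 28.9 RPKM with metformin and at 114 and 119 RPKM with phenformin. RAB3A, a GTPase of exocytosis, was 4.15-fold lower with metformin and 1.09-fold higher with phenformin. ASB13, an adaptor of ubiquitin ligases, was 3.65-fold lower with metformin and 1.05-fold higher with phenformin. The group also held CHAC1, described above.

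Over the 356 genes higher past 2-fold with phenformin alone the median levels were 5.14, 7.38 and 12.6 RPKM with PBS, metformin and phenformin. RAD9A, a subunit of the DNA damage checkpoint clamp, was at 6.0003, 5.55 and 5.28 RPKM with PBS, at 7.01, 6.34 and 7.65 RPKM with metformin and at 22.9 and 23.9 RPKM with phenformin. CHTF18, a clamp loader of sister chromatid cohesion, was at 6.55, 6.71 and 5.73 RPKM with PBS, at 6.69, 6.68 and 6.61 RPKM with metformin and at 20.4 and 22.0039 RPKM with phenformin. CEBPD, a transcription factor of the acute response, was at 1.66, 1.33 and 1.78 RPKM with PBS, at 1.52, 1.42 and 1.69 RPKM with metformin and at 5.38 and 5.69 RPKM with phenformin. In CHTF18 and CEBPD metformin overlapped PBS, while in RAD9A it lay just above. ZFP91 was uneven, at 1.08, 0.900 and 3.54 RPKM with PBS, 1.27, 2.61 and 1.88 RPKM with metformin, and 13.7 and 3.80 RPKM with phenformin, so that 1 library made most of its 4.77-fold difference. The antisense transcript C18orf56 (4.14-fold) and the read-through transcript STAG3L5P-PVRIG2P-PILRB (4.00045-fold) overlap other genes, and their reads could belong to those.

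The 302 genes lower past 2-fold with phenformin alone had median levels of 8.93, 5.28 and 3.79 RPKM with PBS, metformin and phenformin. Only 13 of them met the conditions for a named gene, and the leading 6 included HSPA5, given above. ITGAV, the alpha V integrin subunit, was at 16.6, 18.03 and 16.4 RPKM with PBS, at 15.7, 17.7 and 16.3 RPKM with metformin and at 7.12 and 7.42 RPKM with phenformin. CASK, a membrane scaffold kinase, was at 6.39, 6.17 and 6.62 RPKM with PBS, at 5.53, 5.31 and 5.33 RPKM with metformin and at 2.42 and 2.54 RPKM with phenformin. ITGAV with metformin overlapped PBS, and CASK lay below PBS with both compounds. ME2, the mitochondrial malic enzyme (2.21-fold lower with phenformin), KIDINS220, a neurotrophin receptor scaffold (2.09-fold), and MIB1, a ubiquitin ligase of Notch signaling (2.08-fold), completed the group.

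**Figure D4:**
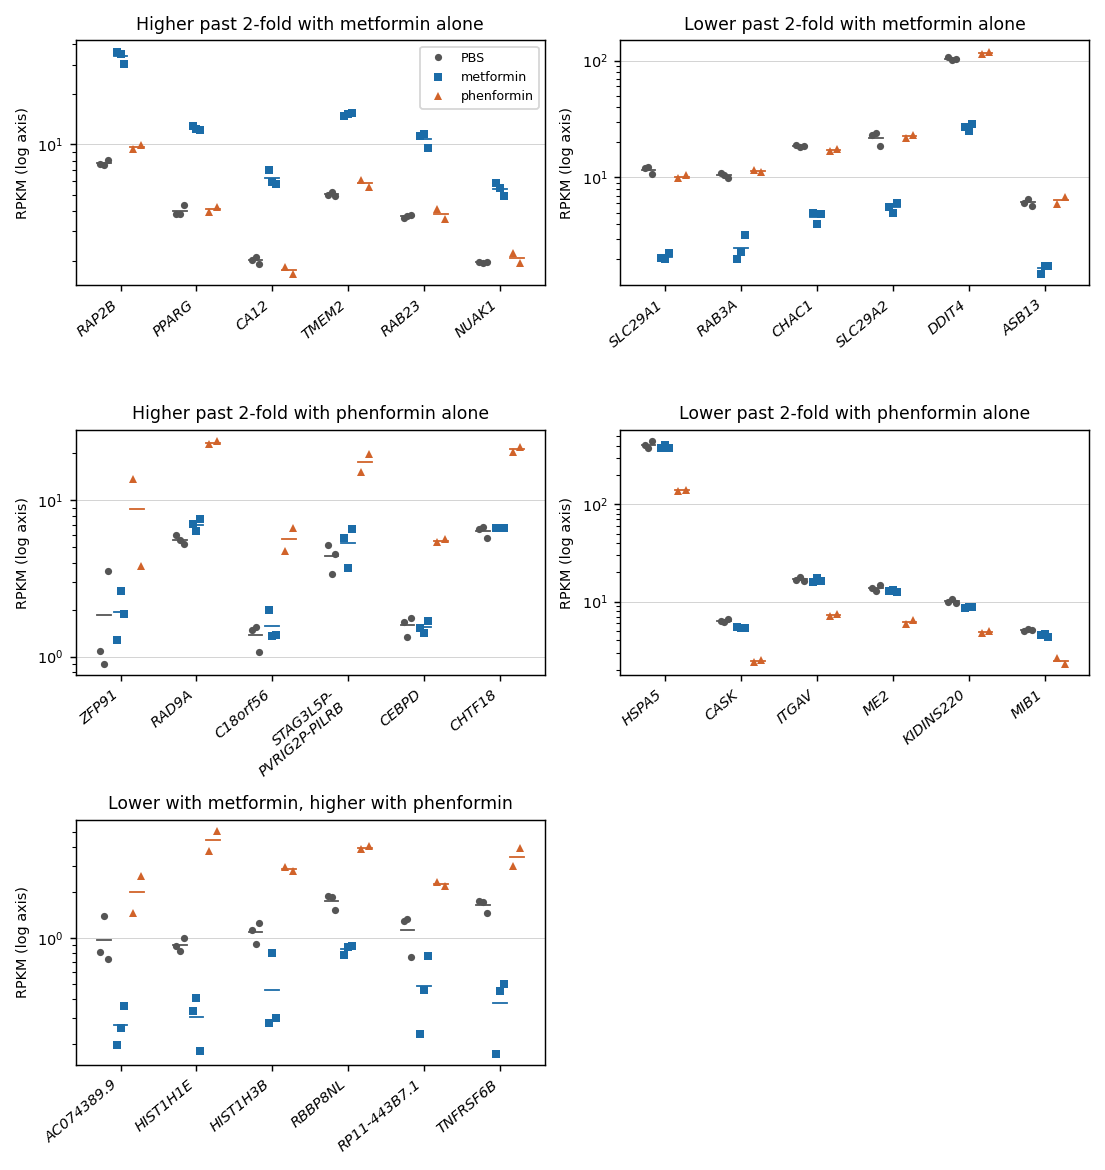
RPKM of single libraries (y axis, log scale) for the leading genes past 2-fold with 1 compound alone and for the 6 genes in opposite directions, with circles for PBS, squares for metformin, triangles for phenformin and short lines for group means. DDIT4 lies at 24.9 to 28.9 RPKM with metformin beside 101 to 107 RPKM with PBS, and HSPA5 at 138 and 139 RPKM with phenformin beside 378 to 442 RPKM with PBS.

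Only 6 features were past 2-fold in opposite directions, all lower with metformin and higher with phenformin, and all were low in abundance. No group mean reached the 5 RPKM asked of the other named genes, and these 6 are named after their values were seen. All 6 reached 2 RPKM only through the phenformin libraries, so that they were higher with phenformin was fixed in advance. HIST1H1E, a linker histone, was at 0.882, 0.829 and 1.00 RPKM with PBS, at 0.332, 0.401 and 0.180 RPKM with metformin and at 3.77 and 5.06 RPKM with phenformin. TNFRSF6B, a soluble decoy receptor for the ligand of FAS, was at 1.75, 1.74 and 1.46 RPKM with PBS, at 0.174, 0.448 and 0.502 RPKM with metformin and at 2.97 and 3.90 RPKM with phenformin. RBBP8NL was at 1.90, 1.86 and 1.53 RPKM with PBS, at 0.769, 0.878 and 0.884 RPKM with metformin and at 3.88 and 4.02 RPKM with phenformin. In these 3 genes every metformin library lay below and every phenformin library above PBS. HIST1H3B, a core histone, gave 2, 6 and 2 reads with metformin beside 22 and 19 with phenformin, and AC074389.9 gave 3, 4 and 5 beside 23 and 37. RP11-443B7.1 was at 0.748 RPKM in 1 PBS library and at 0.763 RPKM in 1 metformin library, so those groups overlapped. Of the 20 tested replication-dependent histone genes, 1 rose and 15 fell with metformin, while 9 rose and 9 fell with phenformin. Over all tested genes 27.9% rose and 54.8% fell with metformin, and 31.2% rose and 45.4% fell with phenformin. The share of histone genes that fell with phenformin was thus near that of all genes. HIST2H2BE was 4.60-fold and 4.31-fold lower. Replication-dependent histone genes make messages that mostly lack a poly(A) tail, which the mRNA library protocol selects for. The part of that selection in their values was not tested.

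Gene length was not used to form the classes. The genomic span, introns included, was taken from GENCODE v29 on GRCh38 by gene name, and the exon length behind each value from the deposited table. Genes past 2-fold with neither compound had a median span of 33.1 kb, and those higher or lower with both had 27.4 kb and 26.5 kb. Genes higher with metformin alone had a median span of 68.3 kb, and genes lower with phenformin alone had 58.0 kb. In contrast, genes lower with metformin alone and genes higher with phenformin alone both had 18.4 kb. Spans over 100 kb made up 36.2% of genes higher with metformin alone and 28.7% of genes lower with phenformin alone, beside 9.06% and 5.92% in the other 2 classes and 18.2% of genes in neither class. Exon length followed the same order, with medians of 5.81 kb and 5.63 kb in the first pair and 3.78 kb and 3.65 kb in the second, beside 4.60 kb for genes in neither class. A span was found for 81.9 to 94.7% of each of these 7 classes. These values describe the classes, and what length contributes to them was not tested.

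**Figure D5:**
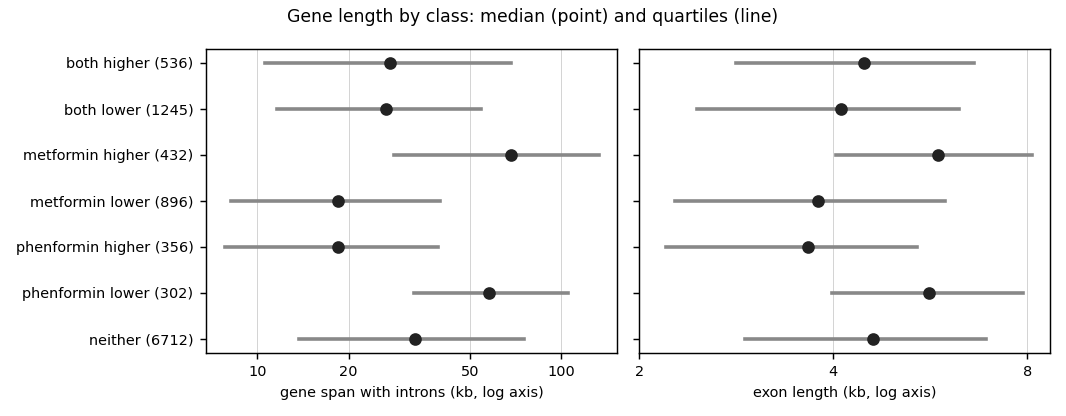
Gene span with introns and exon length (x axes, kb, log scale) for the 7 classes with a span for at least 80% of genes, with points for medians, lines for quartiles and the number of genes in brackets. Genes higher with metformin alone (68.3 kb) and lower with phenformin alone (58.0 kb) are the longest, and the 2 reverse classes (18.4 kb) the shortest.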

How the data were processed

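RNA from C4-2 cells treated with PBS (3 libraries), metformin (3) or phenformin (2) was sequenced as poly(A)-selected mRNA. The authors mapped reads to GRCh37.p13 with CLC Genomics Workbench 7.0, per the labels and methods, and deposited 1 table of RPKM values for 57773 features. The methods call the same values FPKM. No source used here gives the strand setting. Whole reads could be recovered from the RPKM steps for 25528 of 25529 features above 0, within 1e-04 reads, which also gave the depth of each library.

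Limma 3.58.1 in R 4.3.3 (1 trended fit of all 8 libraries, without a replicate block) was run on log2(RPKM + 0.1) for the 12172 genes that reached 1 RPKM in 2 or more libraries, with Benjamini-Hochberg adjustment at 0.05. Fold changes on that scale understate the change of low genes. Classes used group mean RPKM, a fold of 2 and at least 2 RPKM in the highest group, and carry no test. Tables were handled in Python 3.11.15 with pandas 2.3.3. The fit was tested on simulated data.

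The biguanides, the 30 gene lists and the 6 marker lists were chosen with earlier results of these data known. Named class genes have standard symbols, at least 5 RPKM in the highest group and treated libraries apart from PBS: the 8 with the largest smaller fold for classes moved by both compounds, and the 6 with the largest fold for classes moved by 1 compound, among genes within 1.25-fold of PBS with the other. From each list up to 2 members with the largest mean change, up to 1 that passed with opposite signs and up to 1 abundant member that passed with neither compound could be named. Pseudocount, filter, scaling, fold limit, a voom fit of recovered reads, a 2-group fit, a replicate block and leaving out each library were tried as alternatives. No pair of compounds was tested, since the doses differ. A member of the cholesterol list is not reported here by name.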

Additional observations from a re-analysis of the deposited data

Results flagged for a closer look

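In 14 named genes every metformin library lay on one side of all PBS libraries and every phenformin library on the other. Most of these genes were named for that reason, as features of the opposite class or as list members picked for opposite signs. Further list members with this pattern are not described, so the number is no measure of how common it was. The doses of the compounds differ, both are set against the same PBS libraries, and the difference between their effects was not tested. Values are limma log2 changes against PBS, with metformin first and phenformin second. Among the genes past 2-fold in opposite directions, the values were -1.35 and 2.16 for HIST1H1E, -1.22 and 1.30 for HIST1H3B, -1.96 and 1.01 for TNFRSF6B, -0.98 and 1.13 for RBBP8NL, and -1.52 and 0.97 for AC074389.9. Low read counts with metformin limit the precision of most of these values. Each metformin library gave 2 to 6 reads for HIST1H3B, 2 to 5 for HIST1H1E, 3 to 8 for TNFRSF6B and 3 to 5 for AC074389.9. RBBP8NL had 33 to 39. These genes reached 2 RPKM only through the phenformin libraries, so their rise with phenformin was fixed in advance.

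The other genes were more abundant. The lipid regulator SREBF1 stood at -1.27 and 0.46, and the mTORC1 inhibitor DDIT4 at -1.94 and 0.18. The complex I subunit NDUFB3 stood at -0.64 and 0.71, the mitotic kinase AURKB at -0.64 and 0.78, the ribosomal protein gene RPS26 at -0.50 and 0.79, and the spliceosomal SNRPE at -0.39 and 0.98. The chaperone cofactor HSPA4, at 0.74 and -0.17, and the carbonic anhydrase gene CA12, at 1.59 and -0.19, lay the other way round. The exocytosis gene RAB3A stood at -2.04 and 0.12. The phenformin values of CA12 and RAB3A did not pass limma (adjusted p = 0.13 and 0.51). The phenformin calls of AC074389.9, DDIT4 and TNFRSF6B were lost when single libraries were left out, with AC074389.9 at 0.59 (adjusted p = 0.21), DDIT4 at 0.14 (adjusted p = 0.18) and TNFRSF6B at 0.82 (adjusted p = 0.11) without phenformin replicate 2.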

How the results depend on the processing

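For named genes, 2881 values under the alternatives kept their call or their lack of one, 25 lost the call, 19 gained one and 9 turned direction with a call before or after. Among the 2881 values, 17 changed sign with no call in either. On the TPM scale the called log2 changes that turned with metformin were 0.021 for CASK, 0.18 for HSPA5, 0.23 for ITGAV, 0.052 for KIDINS220, 0.17 for ME2 and 0.073 for MIB1, and with phenformin 0.092 for HSPA4. After median-centring they were 0.16 for ITGAV and 0.0076 for MIB1 with metformin. The cause was not tested. Without PBS replicate 1, all 64 relative list medians moved by no more than the standard deviation of the list members' log2 changes. Centring cannot change these medians. Restricting the fit to genes with a mean of at least 5 RPKM, which tests fewer genes, left 2384 genes higher and 3285 lower with metformin, and 2714 higher and 2638 lower with phenformin, so that the balance with phenformin turned. A limit of 5 RPKM left 668 genes lower with both compounds, 536 lower with metformin alone and 0 in the class lower with metformin and higher with phenformin. A 3-fold limit left 211 higher and 443 lower with both, 189 higher and 517 lower with metformin alone, 92 higher and 118 lower with phenformin alone and 0 opposite.

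Leaving out each library in turn gave 3233 to 3436 genes higher and 6353 to 6664 lower with metformin, and 3311 to 3836 higher and 4934 to 5605 lower with phenformin. The classes ranged over 527 to 555 (both higher), 1215 to 1299 (both lower), 422 to 450 and 842 to 969 (higher and lower with metformin alone), 321 to 387 and 293 to 328 (higher and lower with phenformin alone), 4 to 8 (lower with metformin, higher with phenformin) and 0 to 2 (the reverse). Without phenformin replicate 1 ZFP91 lost its call (log2 change 1.26, adjusted p = 0.14 by limma), and without phenformin replicate 2 so did TNFRSF6B (0.82, adjusted p = 0.11). Leaving out 1 library also ended phenformin calls of AC074389.9 (without PBS replicates 1 or 3 or phenformin replicate 2, 0.59 to 0.88), DDIT4 (without PBS replicates 2 or 3 or either phenformin replicate, 0.14 to 0.21), RP11-443B7.1 (without PBS replicate 3, metformin replicate 2 or either phenformin replicate, 0.75 to 1.03) and TMEM2 (without phenformin replicate 1, 0.15). With metformin it ended that of MIB1 (without PBS replicate 2 or metformin replicate 3, -0.17 and -0.16). Same-numbered libraries did not deviate together (correlations from -0.08 to 0.01), so the numbers were not taken as pairs. With the replicate block 3334 genes rose and 6576 fell with metformin, and 3638 rose and 5268 fell with phenformin. Depth limits the genes with a few reads in PBS, and the 2 phenformin libraries limit the spread that can be seen there.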

Other observations

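Further gene lists were counted in the same way. Over all tested genes 27.9% rose and 54.8% fell with metformin, and 31.2% rose and 45.4% fell with phenformin. List counts near these shares are not a response particular to the list. Of 18 amino acid transporter genes 14 fell and 3 rose with metformin and 13 fell and 1 rose with phenformin. SLC7A6, a cationic amino acid exchanger, was 5.51-fold and 6.40-fold lower, while SLC3A2, the heavy chain that such exchangers share, was 3.77-fold and 3.29-fold higher. Of 20 NRF2 targets 8 rose and 10 fell with metformin and 11 rose and 6 fell with phenformin, and after median-centring the balance with metformin turned to 10 higher and 5 lower. Named members were HMOX1, heme oxygenase, 3.10-fold and 2.83-fold higher, and SRXN1, sulfiredoxin, 4.64-fold and 2.62-fold higher. Of 16 hypoxia-inducible factor targets 6 rose and 6 fell with metformin (8 and 6 after centring) and 6 rose and 7 fell with phenformin. The list medians lay 0.27 log2 units above and 0.015 below all genes. P4HA2, a collagen prolyl hydroxylase, was 5.61-fold and 1.59-fold higher, and KDM3A, a histone demethylase, 3.45-fold and 2.35-fold higher.

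Of 14 BCL2 family genes 6 rose and 4 fell with metformin and 8 rose and 5 fell with phenformin. The proapoptotic members BBC3 and BIK moved apart, BBC3 being 3.27-fold and 5.36-fold higher and BIK 4.81-fold and 2.62-fold lower. Of 30 lysosome and autophagy genes 14 rose and 13 fell with metformin and 13 rose and 13 fell with phenformin. The list medians were only 0.42 and 0.13 log2 units above all genes. MITF, a transcription factor of that program, was 6.95-fold and 2.57-fold higher, and WIPI1, an early autophagy protein, was 2.79-fold and 4.24-fold lower. Of 37 core spliceosome genes 16 rose and 10 fell with metformin and 27 rose and 4 fell with phenformin, and the helicase gene DDX39B was 4.58-fold and 6.50-fold higher. Among the cytosolic ribosomal proteins, 8 of 75 genes rose and 45 fell with metformin, a balance that turned to 27 and 14 after median-centring, while 55 rose and 8 fell with phenformin. Of 26 housekeeping genes 5 rose and 17 fell with metformin and 9 rose and 11 fell with phenformin, which turned to 12 and 10 after centring. Of the 8 genes for D cyclins, their kinases and inhibitors, 3 rose and 5 fell with metformin and 3 rose and 2 fell with phenformin.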
